A study of Arabidopsis thaliana with 9 samples.

Results

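Dark-grown seedlings of the Arabidopsis thaliana mutant cop1-4 were set against the wild type Col-0, gene by gene, in 6 of the 9 RNA-seq libraries of the study. The members of the comparison were the libraries labelled cop1-4 (n = 3) and Col-0 (n = 3), and all genes of the deposited count table were used. The mutant was in the Col-0 background, and both genotypes shared one treatment: 3 days of stratification at 4 °C in darkness, 3 h of white light, 21 h of darkness, a far-red treatment and 2 further days of darkness, with RNA taken from whole seedlings at 3 days of age. The other 3 libraries came from spaQ, the usual name of a mutant in the SPA genes, raised in the same way. They entered the fit only for a shared estimate of the spread and one test of a difference. The allele cop1-4 is known as a weak one, with a premature stop codon and a shortened COP1 protein. The labels do not give the origin of the replicates, so p-values here measure a spread between libraries that may be technical only.

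COP1 is a RING-type E3 ubiquitin ligase that works with SPA proteins on a CUL4-DDB1 scaffold. In darkness it marks transcription factors that promote light responses, such as HY5, for degradation by the proteasome, and photoreceptors inhibit it in light. Seedlings lacking COP1 activity open their cotyledons, keep a short hypocotyl and begin chloroplast development in the dark, and are a classical model of the switch from growth in soil to growth in light.

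COP1 itself was measured first. Its transcript stood at 35.7, 29.9 and 29.1 CPM in cop1-4 and 29.7, 34.9 and 29.8 CPM in Col-0. The libraries of the genotypes overlapped, and edgeR's quasi-likelihood test gave a log2 fold change of 0.01 (SE 0.10) with an adjusted p of 0.949. Since the allele changes the protein, the transcript level does not check the label. Counted reads were 22482588 to 33395264 in cop1-4 libraries and 27651857 to 32300852 in Col-0 libraries. Levels are counts scaled to a common library size (CPM) with TMM-adjusted library sizes, log2 fold changes are cop1-4 over Col-0, and a gene counted as called where its p-value, after Benjamini-Hochberg adjustment over every gene in the fit, was under 0.05. Of 81 marker genes of seedling tissues, 72 passed the filter on low counts. The 9 that did not were 3 of 8 for endosperm and seed coat, 2 of 17 for root, 2 of 4 for shoot meristem, 1 of 12 for embryo and 1 of 4 for root cap. Among them, ZOU had 0 reads in both genotypes, LEC1 and TT2 had 0 reads in cop1-4, and WUS had 0 reads in Col-0. The summed level of 8 mesophyll markers was 35100 to 38210 CPM in cop1-4 and 3130 to 3755 CPM in Col-0, that of 17 root markers 4650 to 5293 CPM in cop1-4 and 7986 to 8727 CPM in Col-0, and that of 12 embryo and seed storage markers 36.1 to 60.9 CPM in cop1-4 and 500.1 to 547 CPM in Col-0. The other lists, by their summed levels, were 11 vasculature markers (402 to 404 CPM in cop1-4, 538 to 568 CPM in Col-0), 7 epidermis markers (1676 to 1803 CPM in cop1-4, 2134 to 2267 CPM in Col-0), 10 guard cell markers (156 to 166 CPM in cop1-4, 127 to 139 CPM in Col-0), 8 endosperm and seed coat markers (141 to 162 CPM in cop1-4, 283 to 372 CPM in Col-0), 4 shoot meristem markers (47.9 to 58.6 CPM in cop1-4, 74.4 to 83.2 CPM in Col-0) and 4 root cap markers (4.83 to 6.17 CPM in cop1-4, 2.82 to 4.06 CPM in Col-0). The root marker PYK10 alone held 4044, 3924 and 4430 CPM in cop1-4 and 7012, 6958 and 7505 CPM in Col-0. Of 15 root markers tested, 5 were called higher and 9 lower. Calls were also mixed for vasculature (2 of 11 higher, 6 lower) and guard cells (6 of 10 higher, 3 lower). All 8 mesophyll markers were called higher and all 11 embryo markers tested lower. In whole seedlings, fewer cells of a type and less RNA per cell cannot be told apart. The part of tissue makeup in the results below was not tested.

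The response was broad. Of 20779 genes tested, 12909 were called (62.1%), 6612 of them higher in cop1-4 (31.8% of genes tested) and 6297 lower (30.3%). At least 2-fold changes were called for 5124 genes (24.7%), with 2699 higher (13.0%) and 2425 lower (11.7%). The median log2 fold change of all genes was 0.01 with quartiles at -0.45 and 0.48, and 7785 of the called genes changed less than 2-fold. Changes of at least 8-fold were called for 443 higher and 370 lower genes, and changes of at least 64-fold for 58 higher and 41 lower genes. The 2-fold calls were spread over the genome, with 23.7% to 25.8% of tested genes on each of the 5 chromosomes. With genes in 4 classes of equal size by mean level, from the lowest to the highest, 33.4%, 21.8%, 19.6% and 23.9% were called at 2-fold. In the lowest class 699 were higher and 1034 lower, and in the highest class 860 were higher and 383 lower. In 13646 of the genes tested (65.7%) no cop1-4 library overlapped a Col-0 library. Genes named below were in part chosen for such a gap, so the words on overlap beside them describe their values only.

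**Figure D1:**
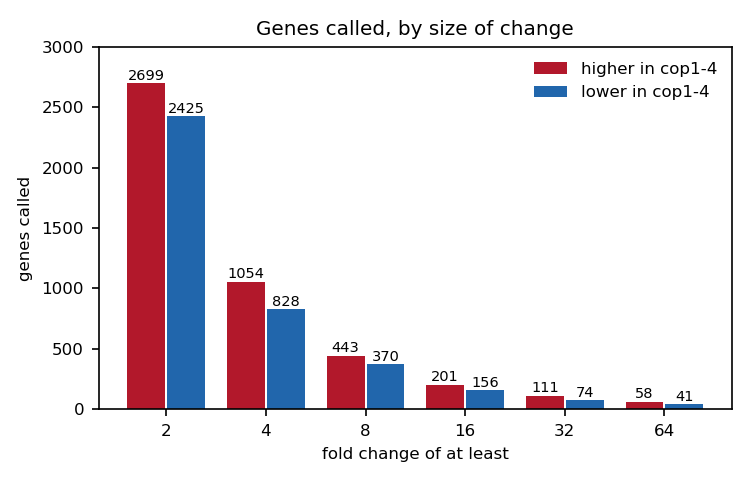
Number of genes called between cop1-4 and Col-0 (vertical axis) by the smallest fold change counted (horizontal axis, in doublings), higher in cop1-4 in red and lower in blue. Counts at 2-fold were 2699 higher and 2425 lower, and at 64-fold 58 higher and 41 lower.

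The split of calls depended on scaling. When library totals replaced TMM, the share of calls that were higher was 28.5% in place of 51.2%, and the median of all genes moved to -0.31. Genes called at least 2-fold higher held 35.81%, 34.99% and 33.74% of reads in the cop1-4 libraries, against 9.13%, 8.97% and 8.35% in the Col-0 libraries. Genes called at least 2-fold lower held 3.52%, 3.92% and 4.18% of reads in cop1-4, against 14.9%, 14.4% and 15.4% in Col-0. Counted from the gene with most reads downward, 50% of reads came from 837 to 866 genes in cop1-4 and from 1250 to 1296 genes in Col-0. Changes are given below relative to the median gene. Counts of called members in lists and families stand beside shares of all genes of 31.8% higher, 30.3% lower and 24.7% at 2-fold. No list or family was tested against those shares.

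**Figure D2:**
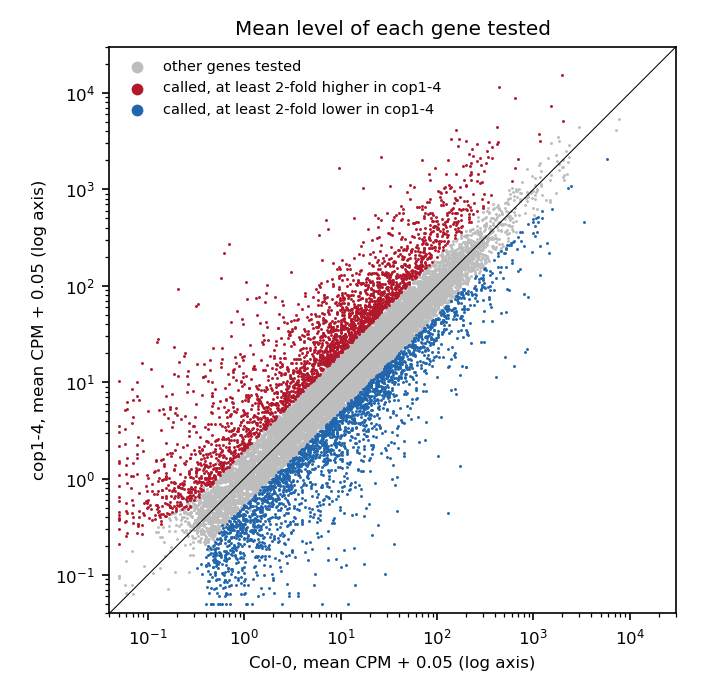
Mean level of each of the 20779 genes tested, cop1-4 (vertical) against Col-0 (horizontal), in CPM plus 0.05 on log axes, with the line of equal levels. Genes called at least 2-fold higher (red, 2699) reach the highest levels of cop1-4, and genes called at least 2-fold lower (blue, 2425) lie below the line at all levels.

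Genes were next ranked by their difference in mean CPM, a scale of reads that is not divided by gene length. The top rises were in photosynthesis. RBCS1A, a small subunit of Rubisco, stood at 15580, 15660 and 14740 CPM in cop1-4 and 2198, 1929 and 1792 CPM in Col-0. RCA, the Rubisco activase, stood at 12950, 11250 and 10630 CPM in cop1-4 and 478, 448 and 409.6 CPM in Col-0. The next rises in level were those of RBCS3B, CAB1, the photorespiratory aminotransferase gene GGT1 (AT1G23310), PSBO1, the carbonic anhydrase gene CA1, GAPB, the isocitrate lyase gene ICL and LHCA4. In these 10 genes no cop1-4 library overlapped a Col-0 library, which held for 65.7% of all genes, and together they held 6.11% to 6.39% of reads in cop1-4 and 0.83% to 0.96% in Col-0. RBCS and CAB genes have near-identical copies, so their reads may be divided among family members with uncertainty.

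The 10 genes with the largest falls in mean CPM were of other kinds. The catalase gene CAT3 (AT1G20620) stood at 1879, 2101 and 2264 CPM in cop1-4 and 5550, 5747 and 6017 CPM in Col-0. PYK10 (BGLU23), the main beta-glucosidase of ER bodies, stood at 4044, 3924 and 4430 CPM in cop1-4 and 7012, 6958 and 7505 CPM in Col-0. LTP2, a lipid transfer protein gene, stood at 354, 483 and 549 CPM in cop1-4 and 3572, 3017 and 3513 CPM in Col-0. All 3 genes were lower in every cop1-4 library than in any Col-0 library, with log2 fold changes of -1.47, -0.79 and -2.87. The remaining falls among the top 10 were those of the aquaporin gene TIP2 (-0.53), the PYK10-binding lectin gene PBP1 (AT3G16420, -1.19), the plasma membrane proton pump gene AHA2 (-1.14), AT1G12080 (-2.72), the gibberellin-regulated peptide gene GASA4 (-2.3), the protochlorophyllide oxidoreductase gene PORB (-3.21) and AT5G40450 (-1.32). ICL, an enzyme in the use of stored lipid, was among the 10 rises (1.33), while CAT3, of the enzyme family that removes peroxide, led the falls.

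**Figure D3:**
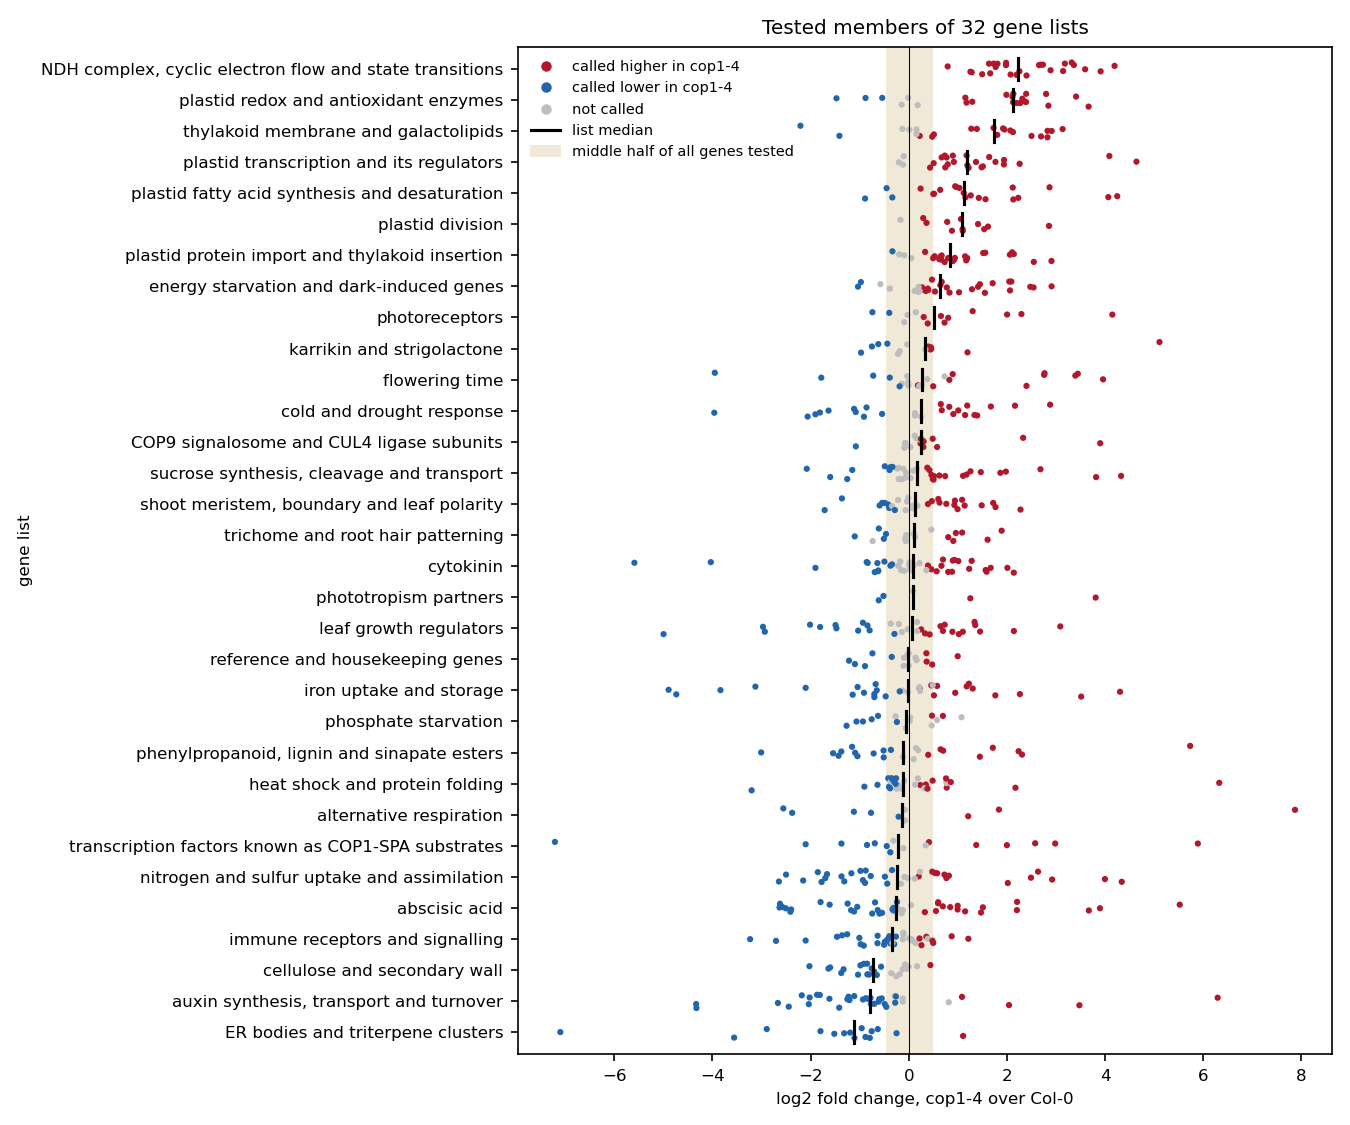
Log2 fold change, cop1-4 over Col-0, of every tested member of 32 gene lists, 1 point a gene, with the list median as a black bar and the span between the quartiles of all genes tested shaded. Lists run from the NDH complex at the top (median 2.23) to ER bodies and triterpene clusters at the bottom (median -1.11).

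Chloroplast proteins are imported through TOC and TIC complexes and inserted into thylakoids by SEC, SRP and TAT routes. Of 26 tested genes of import and insertion, 22 were called higher and 1 lower (4 with library totals), against a background of 31.8% higher and 30.3% lower, with a median log2 fold change of 0.85. TIC55, a Rieske-type protein of the inner envelope, stood at 78.4, 75.1 and 69.0 CPM in cop1-4 and 9.62, 10.4 and 9.58 CPM in Col-0. SECA1, the motor of SEC transport into thylakoids, stood at 504, 393 and 360.2 CPM in cop1-4 and 87.1, 111 and 86.6 CPM in Col-0. Neither gene's libraries overlapped between the genotypes, and the log2 fold changes were 2.91 (SE 0.09, adjusted p = 3.48e-13) and 2.14 (SE 0.13, adjusted p = 7.29e-10). TIC62, another inner envelope protein, rose by 2.55, CAO (AT2G47450), of the SRP route, by 2.11 and TATC of the TAT route by 2.06. The preprotein receptor genes changed less: TOC159, the receptor for photosynthetic proteins, rose by 0.67 (0.35 and not called with library totals), TOC33 by 0.66, and TOC120, a receptor tied to non-photosynthetic proteins, fell by 0.33.

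The thylakoid list held 17 genes called higher and 2 lower among 23 tested, or 4 lower with library totals and 1 with a stricter filter, with a median of 1.73. VAR2, the FtsH protease subunit that repairs photosystem II and whose loss variegates leaves, stood at 1184, 986 and 923 CPM in cop1-4 and 118, 129 and 105 CPM in Col-0. FTSH1, of the partner type, stood at 387, 298 and 282 CPM in cop1-4 and 42.1, 48.6 and 38 CPM in Col-0. Every cop1-4 library lay far above the Col-0 libraries for both, with log2 fold changes of 3.13 (SE 0.11) and 2.91 (SE 0.13). The grana-bending protein gene CURT1B rose by 2.83, the lumenal protease gene DEG1 by 2.7, and VIPP1, needed for thylakoid formation, by 2.07. Galactolipids, the bulk lipids of thylakoids, are made by MGD1 in plastids and by MGD2 and MGD3 under phosphate shortage. MGD1 rose by 1.39, whereas MGD2 fell by 1.41 and MGD3 by 2.21. MGD2 stood at 3.16, 3.88 and 3.72 CPM in cop1-4 and 9.18, 10.3 and 9.04 CPM in Col-0, with no overlap.

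Plastid transcription had 22 of 25 tested genes called higher, 0 lower (1 without Col-0 replicate 2) and a median of 1.18, or 3 lower with library totals. The sigma factor gene SIG5, known for its response to blue light, stood at 65.3, 60.2 and 62.0 CPM in cop1-4 and 2.54, 2.58 and 2.40 CPM in Col-0. The difference far exceeded the spread in either genotype (log2 fold change 4.64, SE 0.12, adjusted p = 9.96e-14). CGA1, a GATA factor that promotes chloroplast development, stood at 7.73, 5.97 and 7.71 CPM in cop1-4 and 0.366, 0.311 and 0.576 CPM in Col-0. Every cop1-4 library lay above every Col-0 library (log2 fold change 4.09, SE 0.20, adjusted p = 9.32e-11). GLK2, a regulator of chloroplast genes, rose by 2.26, and its paralog GLK1 had a log2 fold change of -0.12 and was not called (adjusted p = 0.383). The other sigma factor genes SIG1, SIG2, SIG3, SIG4 and SIG6 rose by 1.77, 1.51, 1.94, 1.94 and 1.64. Plastid division had 11 of 12 genes called higher and 0 lower, or 1 with library totals or without Col-0 replicate 2 (median 1.08), with GC1 (AT2G21280) at 2.86 and FTSZ1-1, the tubulin-like ring protein, at 1.62.

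The list with the highest median was that of the NDH complex, cyclic electron flow and state transitions. All 26 tested members were called higher, 25 of them at least 2-fold, with a median of 2.23. Without genes that overlap another gene, 17 members were tested and all 17 were called higher. Another member, NDHL, overlaps another gene fully and had 0 reads, so it was not tested. STN7, the kinase that moves antenna between the photosystems, stood at 188, 159 and 162 CPM in cop1-4 and 9.73, 12.6 and 11.6 CPM in Col-0. NDHU, an NDH subunit, stood at 79.8, 78.8 and 74.2 CPM in cop1-4 and 5.18, 4.23 and 3.25 CPM in Col-0. Both genes were higher in every cop1-4 library than in any Col-0 library, with log2 fold changes of 3.91 (SE 0.12, adjusted p = 4.21e-13) and 4.19 (SE 0.14, adjusted p = 9.13e-13). PGRL1A and PGR5, the proteins of the main cyclic route, rose by 3.36 and 2.68. PNSB1, an NDH subunit, rose by 3.59, and NPQ4, the sensor of energy-dependent quenching, by 2.26.

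Of 23 tested redox and antioxidant enzymes, most of them plastid ones, 17 were called higher, all at least 2-fold, and 3 lower, or 5 lower with library totals, with a median of 2.13. The list also holds the peroxisomal catalases and APX1, a cytosolic ascorbate peroxidase. The summed level of the list, which includes CAT3, overlapped between genotypes (7658 to 7849 CPM in cop1-4, 7587 to 7929 CPM in Col-0). TRXF1, a thioredoxin gene whose protein carries light signals to Calvin cycle enzymes, stood at 156, 144 and 144 CPM in cop1-4 and 13.1, 10.6 and 11.2 CPM in Col-0. TRXM4, another plastid thioredoxin gene, stood at 350.5, 345 and 333 CPM in cop1-4 and 38.04, 29.1 and 29.6 CPM in Col-0. Both were higher in every cop1-4 library than in any Col-0 library, by 3.66 (SE 0.10) and 3.41 (SE 0.11). Peroxiredoxins 2CPA and 2CPB rose by 2.13 and 2.13, the plastid copper/zinc superoxide dismutase CSD2 by 2.80, and the photorespiratory catalase CAT2 (AT4G35090) by 2.36. Besides CAT3, the falls were TRXY1 (-0.88), which overlaps a neighbouring gene in part, and MDAR6 (-0.54).

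Fatty acid synthesis in plastids had 18 of 21 genes called higher and 3 lower, with a median of 1.12. FAD5, which desaturates palmitate for galactolipids, stood at 296, 283 and 272 CPM in cop1-4 and 19.0, 16.9 and 14.8 CPM in Col-0. FAD4, which does so for phosphatidylglycerol, stood at 48.5, 45.0 and 47.9 CPM in cop1-4 and 2.88, 2.33 and 2.18 CPM in Col-0. The groups did not overlap, and the log2 fold changes of 4.07 (SE 0.11) and 4.25 (SE 0.11) were the largest of the list. FAD8, FAD7 and FAD6, which make the polyunsaturated fatty acids of thylakoid lipids, rose by 2.87, 2.23 and 2.13, while of the ER desaturases FAD2 rose by 0.50 and FAD3 fell by 0.45. The thioesterase gene FATB, whose protein releases fatty acids for export, fell by 0.89.

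The list of sucrose synthesis, cleavage and transport had 17 of 35 genes called higher and 8 lower, with a median of 0.17, or 11 higher, 16 lower and -0.15 with library totals, so no direction is given for it. SWEET2, a vacuolar sugar carrier, stood at 89.2, 79.5 and 85.4 CPM in cop1-4 and 4.45, 4.07 and 4.12 CPM in Col-0. SWEET3, another sugar carrier of the family, stood at 4.08, 4.69 and 6.37 CPM in cop1-4 and 22.1, 19.99 and 21.1 CPM in Col-0. The groups were apart for both genes in opposite directions, with log2 fold changes of 4.33 (SE 0.09, adjusted p = 2.76e-14) and -2.08 (SE 0.15, adjusted p = 8.11e-09). CYFBP, the cytosolic fructose bisphosphatase of sucrose synthesis, rose by 3.82, and the triose phosphate exporter TPT of the chloroplast by 2.68. The sucrose synthase gene SUS4, known to respond to low oxygen, fell by 1.60, and GPT2, the glucose phosphate importer, by 1.25.

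Genes known to be induced by darkness and energy shortage in green plants were examined next, with both genotypes in the dark. Of 31 tested, 23 were called higher and 2 lower, or 4 lower with library totals, with a median of 0.64. ASN1, the dark-induced asparagine synthetase, stood at 2001, 1892 and 1810 CPM in cop1-4 and 306, 358 and 314 CPM in Col-0. SEN1 (AT4G35770), the classical dark-induced marker DIN1, stood at 1145, 1315 and 1284 CPM in cop1-4 and 236, 222 and 215 CPM in Col-0. BCAT2, a branched-chain amino acid aminotransferase, stood at 445, 475 and 441 CPM in cop1-4 and 55.7, 69.2 and 56.2 CPM in Col-0. For these 3 genes the lowest cop1-4 library was well above the highest Col-0 library, with log2 fold changes of 2.54 (SE 0.10), 2.48 (SE 0.09) and 2.91 (SE 0.11). The leucine breakdown genes MCCA and MCCB rose by 1.45 and 2.05, the proline dehydrogenase gene ERD5 by 2.06 and the electron carrier gene ETFQO by 1.55. BZIP11, a known regulator of such genes, was not called (-0.38, adjusted p = 0.0986). The falls were EXL2 (-1.03) and TPS5 (-0.97).

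The 250 bases before the annotated start of ASN1 are shown because they hold a G-box (CACGTG), the site read by HY5 and by PIF factors, between 2 I-boxes (GATAAG or its complement CTTATC), a motif of light-regulated promoters. The window is chr3:17441432-17441681, minus strand, of TAIR10.1 (RefSeq), written 5′ to 3′ with motifs in capitals. Counted from the start, the I-boxes begin at -246 and -111 and the G-box at -167. Windows shown here and below were picked for their matches, and a match is a description, not a binding site.
ASN1: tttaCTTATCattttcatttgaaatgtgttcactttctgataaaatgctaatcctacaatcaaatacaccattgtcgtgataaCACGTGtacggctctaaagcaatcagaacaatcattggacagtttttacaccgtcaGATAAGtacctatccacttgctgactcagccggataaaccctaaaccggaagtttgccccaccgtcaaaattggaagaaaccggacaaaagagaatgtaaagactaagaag

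Alternative respiration had 10 tested members, 3 called higher and 5 lower, with a median of -0.14. NDA1, a light-responsive alternative NAD(P)H dehydrogenase of mitochondria, stood at 80.1, 57.7 and 48.0 CPM in cop1-4 and 0.157, 0.280 and 0.364 CPM in Col-0. It was low in all Col-0 libraries and higher in every cop1-4 library (log2 fold change 7.87, SE 0.26, adjusted p = 9.69e-13). NDC1 rose by 1.84 and the alternative oxidase AOX1A by 1.21, while the dicarboxylate carrier UCP5 fell by 2.37 and NDB2 by 1.12.

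The list of nitrogen and sulfur genes had 13 of 36 tested genes called higher and 18 lower (median -0.25), while its summed level was 9437 to 12730 CPM in cop1-4 and 4784 to 5635 CPM in Col-0. GLU1, the ferredoxin-dependent glutamate synthase, stood at 3469, 2100 and 1896 CPM in cop1-4 and 316, 419 and 249.7 CPM in Col-0. Its 3 cop1-4 values were spread widely and all lay above Col-0 (log2 fold change 2.92, SE 0.21, adjusted p = 8.83e-09). ASN2, an asparagine synthetase gene that light is known to induce, stood at 281, 243 and 248 CPM in cop1-4 and 17.2, 15.3 and 15.8 CPM in Col-0 (log2 fold change 4.0, SE 0.09, adjusted p = 6.59e-14). The ammonium transporter gene AMT1;2 rose by 4.34 and the nitrate reductase genes NIA1 and NIA2 by 2.02 and 2.63. NRT1.5, which loads nitrate into root xylem, stood at 49.0, 61.5 and 54.3 CPM in cop1-4 and 286, 341 and 304 CPM in Col-0 (log2 fold change -2.5, SE 0.16, adjusted p = 2.27e-09). NRT1.1 fell by 1.78, the sulfate reduction genes APR1 and APR3 by 2.15 and 1.66, and the sulfate transporter genes SULTR3;1 and SULTR1;2 by 1.85 and 1.31.

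Of 31 tested iron genes, 12 were called higher and 14 lower, with a median of -0.02. FRO7, a ferric reductase that supplies chloroplasts, stood at 21.5, 16.6 and 17.2 CPM in cop1-4 and 0.627, 1.18 and 1.03 CPM in Col-0. FRO6, a reductase of leaf cell surfaces, stood at 16.1, 12.1 and 12.3 CPM in cop1-4 and 1.52, 1.24 and 0.758 CPM in Col-0. These neighbouring genes had no library in common range between genotypes (log2 fold change 4.30, SE 0.18, adjusted p = 9.92e-12 for FRO7 and log2 fold change 3.51, SE 0.21, adjusted p = 7.87e-10 for FRO6). The iron-nicotianamine transporter gene YSL1 rose by 2.26 and the ferritin gene FER1 by 1.23. MYB10, which serves growth at low iron in roots, stood at 0.946, 0.775 and 0.837 CPM in cop1-4 and 23.4, 23.9 and 21.6 CPM in Col-0 (log2 fold change -4.73, SE 0.14, adjusted p = 2.72e-13). The vacuolar importer gene VIT1 fell by 3.83, the iron regulator BHLH39 by 3.12 and the citrate exporter gene FRD3 by 1.04. BHLH39 averaged 0.20 CPM in cop1-4 and 1.81 CPM in Col-0. IRT1, the root iron transporter, was near 0 in both genotypes, with 1 read over the cop1-4 libraries and 52 over the Col-0 libraries, a ratio of 0.0255 (exact 95% interval 0.000634 to 0.148, counting error only). The phosphate starvation list had 2 of 15 called higher, 6 lower and a median of -0.06, or 1 higher with library totals, with the phosphatase gene PAP17 at -1.27 and the regulator SPX4 at 0.70.

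The window before FRO6, chr5:20204596-20204845 on the minus strand of TAIR10.1 (RefSeq), is shown because it holds the same pair of motifs as that of ASN1. Its I-boxes begin at -237 and -200 and its G-box at -98.
FRO6: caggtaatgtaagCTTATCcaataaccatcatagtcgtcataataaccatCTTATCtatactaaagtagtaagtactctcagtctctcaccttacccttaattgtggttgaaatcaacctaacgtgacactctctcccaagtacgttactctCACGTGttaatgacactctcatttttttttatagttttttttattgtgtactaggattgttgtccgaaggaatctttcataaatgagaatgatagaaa

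Photoreceptor genes had 9 of 14 called higher and 2 lower, or 4 lower with library totals, with a median of 0.52. FKF1, the blue-light receptor of photoperiodic flowering, stood at 13.6, 21.02 and 15.8 CPM in cop1-4 and 1.25, 0.933 and 0.607 CPM in Col-0. Its groups were far apart (log2 fold change 4.15, SE 0.23, adjusted p = 2.98e-10). CRY3, the organellar cryptochrome, rose by 2.3, ZTL by 1.30 and CRY1 by 0.81. Phototropins went opposite ways. PHOT2, the high-light phototropin, stood at 348, 279 and 276 CPM in cop1-4 and 72.4, 88.1 and 64.9 CPM in Col-0, and PHOT1, the phototropin of etiolated seedlings, stood at 391, 364 and 364 CPM in cop1-4 and 579, 678 and 611 CPM in Col-0. Each pair of groups was apart (log2 fold change 2.0, SE 0.12, adjusted p = 6.38e-10 for PHOT2 and log2 fold change -0.74, SE 0.08, adjusted p = 1.08e-06 for PHOT1), and part of PHOT2 overlaps another gene. PHYA, the phytochrome of etiolated tissue, stood at 919, 734 and 726 CPM in cop1-4 and 938, 1227 and 966 CPM in Col-0, and its groups lay close together (log2 fold change -0.40, SE 0.12, adjusted p = 0.00780). PHYB rose by 0.66.

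Of 5 phototropism partners that were matched to a gene by name, 2 were called higher and 2 lower. Their median of 0.09 became -0.23 with library totals. RPT2, which adapts phototropism to bright light, stood at 635, 606 and 649 CPM in cop1-4 and 45.5, 44.4 and 45.0 CPM in Col-0 (log2 fold change 3.81, SE 0.08, adjusted p = 2.76e-14). NPH3, which acts with phototropins in bending, fell by 0.51. The list of the COP9 signalosome and the CUL4 ligase, in which RUP1 and RUP2 were also placed, had 9 of 17 genes called higher and 1 lower. Its median was 0.24. With library totals 3 were higher and 5 lower, and the median was -0.07. The rises of over 2-fold were RUP2 and RUP1, the WD40 repressors of the UV-B receptor (3.9 and 2.33). RUP2 stood at 45.5, 39.4 and 38.1 CPM in cop1-4 and 3.24, 2.18 and 2.76 CPM in Col-0. DET1 rose by 0.58, the largest rise of the list besides RUP1 and RUP2. CSN5B, the minor copy of the signalosome's catalytic subunit, fell by 1.08. FUS6, another subunit of the signalosome, was not called (-0.09, adjusted p = 0.308).

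Transcription factors whose proteins COP1 and SPA are known to mark for degradation were examined as transcripts. Of 16 tested, 6 were called higher and 7 lower (median -0.21). BBX25 stood at 80.2, 73.2 and 72.6 CPM in cop1-4 and 1.23, 1.24 and 1.33 CPM in Col-0 and had the lowest adjusted p of the list (log2 fold change 5.89, SE 0.10, adjusted p = 6.72e-15). HYH, the relative of HY5, rose by 2.98 and BBX24 by 2.58. HY5 itself stood at 12.6, 10.5 and 12.0 CPM in cop1-4 and 15.9, 15.3 and 14.3 CPM in Col-0, lower in the mutant by a small step (log2 fold change -0.37, SE 0.09, adjusted p = 0.00245). BBX23 stood at 0, 0.116 and 0.0930 CPM in cop1-4 and 10.9, 10.8 and 8.67 CPM in Col-0 and PAR2 at 7.24, 6.59 and 7.53 CPM in cop1-4 and 34.1, 30.03 and 27.3 CPM in Col-0. Both were lower in all cop1-4 libraries (log2 fold change -7.21, SE 0.34, adjusted p = 4.4e-11 for BBX23 and log2 fold change -2.1, SE 0.11, adjusted p = 1.57e-10 for PAR2). With few BBX23 reads in cop1-4, the size of its fold is less certain than its SE implies. The evening complex gene ELF3 fell by 0.85 and the anthocyanin regulator MYB75 by 1.37, a call lost without cop1-4 replicate 2 (-1.20). MYB75 averaged 0.21 CPM in cop1-4 and 0.54 CPM in Col-0.

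The B-box family as a whole had 18 of 27 tested members called higher, 13 at least 2-fold, and 7 lower, 2 at least 2-fold, with a median of 0.77. The microProtein-like members BBX30 and BBX31 both rose. They are known as direct targets of HY5, which by itself gives no direction, and the part of HY5 was not tested. BBX30 stood at 3.72, 3.61 and 3.72 CPM in cop1-4 and 0.0261, 0 and 0.0303 CPM in Col-0, with 287 reads over the cop1-4 libraries and 2 over the Col-0 libraries, a ratio of 190 (exact 95% interval 52.2 to 1580, counting error only). BBX31 stood at 3.62, 4.58 and 3.35 CPM in cop1-4 and 0.157, 0.155 and 0.0910 CPM in Col-0 (log2 fold change 4.79, SE 0.26, adjusted p = 2.2e-10). With few BBX31 reads in Col-0, the size of its fold is less certain than its SE implies. BBX32 rose by 4.71. BBX16 had 0.652, 0.620 and 0.511 CPM in cop1-4 and 0, 0 and 0 CPM in Col-0, at least 6.79-fold higher in cop1-4 against a floor of 3 reads per library. Besides BBX23, the largest fall was that of BBX17 (-3.18).

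The window before BBX30, chr4:8708591-8708840 on the plus strand of TAIR10.1 (RefSeq), is shown because BBX30 is known as a HY5 target and HY5 reads the G-box, which begins at -72.
BBX30: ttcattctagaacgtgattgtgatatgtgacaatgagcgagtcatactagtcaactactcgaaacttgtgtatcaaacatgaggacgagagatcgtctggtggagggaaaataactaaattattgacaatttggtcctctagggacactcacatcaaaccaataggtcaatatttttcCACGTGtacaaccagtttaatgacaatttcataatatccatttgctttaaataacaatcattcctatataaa

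The other families of transcription factors described here were picked after their values were seen. MYB genes had 18 of 78 called higher and 42 lower (median -0.61). Among them, besides MYB10, were falls of MYB27, a repressor in the anthocyanin network (-3.92), and rises of MYB12, the flavonol regulator (3.25), and MYB28, the regulator of aliphatic glucosinolates (2.68). NAC genes had 13 of 74 higher and 31 lower, or 7 higher with library totals and 18 lower with a stricter filter on low counts (median -0.29), with RD26 at 1.47 and the senescence regulator NAC6 (ORE1) at -1.4. WRKY genes had 12 of 57 higher and 25 lower (median -0.28), with WRKY49 at 1.88 and WRKY46 at -1.90. TCP genes had 10 of 18 higher and 4 lower (median 0.38), with TCP17, TCP13 and TCP10, which restrain growth at leaf margins, at 3.09, 2.14 and 1.45, and TCP12 at -4.02. TCP12 averaged 0.11 CPM in cop1-4 and 1.75 CPM in Col-0.

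Of 36 tested genes of auxin supply and transport, 28 were called lower and 4 higher, or 2 higher with a stricter filter, with a median of -0.80 against 0.01 for all genes. WAG2, of the AGC kinases that direct auxin carriers, stood at 2.81, 4.46 and 4.32 CPM in cop1-4 and 73.7, 73.4 and 82.9 CPM in Col-0. WAG1 stood at 1.76, 1.59 and 1.44 CPM in cop1-4 and 31.2, 30.5 and 35.3 CPM in Col-0. PID stood at 2.41, 2.40 and 2.46 CPM in cop1-4 and 17.2, 13.7 and 15.2 CPM in Col-0. All 3 were lower in every cop1-4 library, with log2 fold changes of -4.33 (SE 0.15), -4.32 (SE 0.12) and -2.66 (SE 0.13). TAA1, the first enzyme of the main route to auxin, fell by 1.87, its relative TAR2 rose by 2.04, and the YUC genes of the next step fell by 0.82 (YUC8) to 2.44 (YUC5), while YUC4 was not called (0.82, adjusted p = 0.147). Of the carrier genes of the PIN family, PIN3, PIN4 and PIN7 fell by 0.49, 0.61 and 1.25, while PIN5 was called higher at a low level, at 0.261, 0.271 and 0.465 CPM in cop1-4 and 0, 0 and 0 CPM in Col-0. LAX1 rose by 1.09 while LAX2 and LAX3 of the same importer family fell by 1.42 and 1.21. SAUR genes, which promote cell elongation, had 43 of 71 called lower, 37 at least 2-fold, and 14 higher (median -1.23), and near-identical SAUR copies may share reads. AT4G13790 fell by 6.57 and AT4G38840 rose by 1.79.

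IAA6, an auxin-induced repressor gene, stood at 0.163, 0.388 and 0.279 CPM in cop1-4 and 24.5, 21.7 and 26.8 CPM in Col-0 (log2 fold change -6.47, SE 0.23, adjusted p = 2.23e-12). The window before it, chr1:19673653-19673902 on the minus strand of TAIR10.1 (RefSeq), is shown because an auxin response element (TGTCTC), at -179, stands 1 base before a PIF-binding E-box (CACATG or CATGTG), at -172, with a further E-box at -73.
IAA6: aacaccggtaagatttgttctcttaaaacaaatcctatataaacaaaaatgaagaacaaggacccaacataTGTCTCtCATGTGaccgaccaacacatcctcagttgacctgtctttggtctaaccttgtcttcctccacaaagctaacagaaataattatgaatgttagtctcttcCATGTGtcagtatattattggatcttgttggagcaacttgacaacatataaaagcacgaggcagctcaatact

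Cytokinin genes had 18 of 42 called higher and 12 lower, and the median was 0.09, or -0.22 with library totals. LOG enzymes activate cytokinins. LOG5 stood at 0.457, 0.194 and 0.418 CPM in cop1-4 and 16.2, 18.0 and 18.17 CPM in Col-0, LOG8 at 11.6, 14.6 and 14.9 CPM in cop1-4 and 51.1, 50.2 and 51.5 CPM in Col-0 and LOG1 at 20.4, 16.7 and 18.0 CPM in cop1-4 and 5.65, 6.19 and 6.55 CPM in Col-0. LOG5 and LOG8 were lower and LOG1 higher in every cop1-4 library (-5.59, -1.90 and 1.59). The cytokinin oxidase CKX7 rose by 1.67 and IPT7, of cytokinin synthesis, fell by 4.03. Response regulators of the negative type changed in both directions (ARR16 2.14, ARR7 0.90, ARR8 -0.69).

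Of 42 tested abscisic acid genes, 16 were called higher and 21 lower (median -0.27). NCED3, of the rate-limiting cleavage step, stood at 1.92, 1.94 and 1.998 CPM in cop1-4 and 13.3, 10.3 and 11.2 CPM in Col-0. CYP707A2, a hydroxylase that inactivates abscisic acid, stood at 15.2, 17.1 and 13.5 CPM in cop1-4 and 0.235, 0.311 and 0.455 CPM in Col-0. The groups were apart in both (log2 fold change -2.57, SE 0.16, adjusted p = 1.58e-09 for NCED3 and log2 fold change 5.52, SE 0.18, adjusted p = 6.5e-13 for CYP707A2). NCED5 fell by 2.5 (mean 0.14 CPM in cop1-4 and 0.76 CPM in Col-0) and NCED9 by 1.61 (0.31 and 0.98 CPM). Of the other hydroxylase genes, CYP707A4 rose by 3.67 (SE 0.80), CYP707A3 fell by 0.30 and CYP707A1 was not called (0.05, adjusted p = 0.721). Of the receptors, PYL2 rose by 2.21 (SE 0.35), PYL6 by 2.2 and PYL4 by 1.15, and PYL9 fell by 0.69. The phosphatases HAI1, HAI2 and HAI3, which the hormone induces, fell by 2.41, 2.39 and 2.62. HAI2 averaged 0.33 CPM in cop1-4 and 1.72 CPM in Col-0, and HAI3 0.07 and 0.49 CPM. The responsive gene RAB18 (AT5G66400) fell by 2.63. The embryo and seed storage markers, which share hormone control in seeds, were lower as well. They include ABI3, also a member of this list, and their part in these falls was not tested. The karrikin and strigolactone list had 6 of 15 called higher and 4 lower, or 2 higher and 7 lower with library totals (median 0.34), with the strigolactone synthesis gene D27 at 3.39, 2.99 and 3.02 CPM in cop1-4 and 0.0784, 0.0311 and 0.152 CPM in Col-0 and the karrikin receptor KAI2 at 1.20.

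Genes of drought and cold had 12 of 25 called higher and 10 lower, with a median of 0.25, or -0.06 with library totals. RD20, a caleosin gene, stood at 0.685, 1.24 and 1.49 CPM in cop1-4 and 18.5, 14.7 and 18.4 CPM in Col-0 (log2 fold change -3.96, SE 0.22, adjusted p = 3.44e-10). RD22 stood at 43.1, 45.9 and 47.5 CPM in cop1-4 and 159, 147 and 172 CPM in Col-0 (log2 fold change -1.81, SE 0.09, adjusted p = 1.26e-10), and the dehydrin gene ERD10 fell by 1.90. COR414-TM1, a cold-induced gene for a plastid membrane protein, stood at 12.3, 15.7 and 14.03 CPM in cop1-4 and 2.17, 1.86 and 1.64 CPM in Col-0 (log2 fold change 2.88, SE 0.19, adjusted p = 3.36e-09). The cold-induced gene KIN2 rose by 1.67 and the galactinol synthase gene GolS1 by 2.17.

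The window before RD22, chr5:8916857-8917106 on the minus strand of TAIR10.1 (RefSeq), is shown because it holds 2 PIF-binding E-boxes 10 bases apart, at -72 and -62.
RD22: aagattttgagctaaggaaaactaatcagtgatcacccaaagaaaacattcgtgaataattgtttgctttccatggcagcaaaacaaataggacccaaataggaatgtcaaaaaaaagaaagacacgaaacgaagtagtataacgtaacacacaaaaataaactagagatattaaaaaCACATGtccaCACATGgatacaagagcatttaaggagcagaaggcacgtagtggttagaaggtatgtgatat

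Leaf growth regulators had 14 of 32 called higher and 12 lower, at a median of 0.07 that became -0.24 with library totals. GRF7 (AT5G53660), a growth-regulating factor that also represses drought genes, stood at 1.60, 2.06 and 3.76 CPM in cop1-4 and 83.2, 68.1 and 76.8 CPM in Col-0. ARGOS, an auxin-induced gene that promotes organ growth, stood at 8.35, 10.3 and 9.67 CPM in cop1-4 and 81.5, 67.0 and 72.5 CPM in Col-0. Both were lower in all cop1-4 libraries (log2 fold change -4.99, SE 0.20, adjusted p = 6.09e-12 for GRF7 and log2 fold change -2.97, SE 0.12, adjusted p = 8.95e-12 for ARGOS). GRF3 (AT2G36400) rose by 1.36 while GRF2 (AT4G37740), GRF6 (AT2G06200) and GRF8 (AT4G24150) fell by 1.47, 2.93 and 2.01. The meristem and leaf polarity list had 14 of 30 called higher and 8 lower, at a median of 0.13 that became -0.18, with 14 lower, with library totals, with the abaxial identity genes YAB5 and YAB1 at 1.77 and 1.49, the boundary gene LOB at 2.28, and KNAT7 and KAN3 at -1.71 and -1.36. Trichome and root hair patterning had 6 of 17 higher, or 3 with a stricter filter, and 4 lower, and its median of 0.10 was -0.21 with library totals, -0.08 with a stricter filter and -0.05 without Col-0 replicate 1. RSL2, a root hair growth factor, rose by 1.89 and ETC1 fell by 1.1.

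Flowering genes had 10 of 23 tested called higher and 5 lower, or 9 lower with library totals, 3 with a stricter filter and 2 without cop1-4 replicate 1, and their median was 0.27, or -0.04 with library totals. SVP, a repressor of flowering, stood at 42.1, 49.5 and 49.4 CPM in cop1-4 and 4.73, 4.41 and 4.22 CPM in Col-0. SOC1, an activator, stood at 10.14, 11.9 and 11.6 CPM in cop1-4 and 0.810, 0.715 and 0.607 CPM in Col-0. CDF3, a repressor of CO, stood at 70.6, 75.3 and 75.7 CPM in cop1-4 and 6.09, 6.28 and 8.01 CPM in Col-0. All 3 rose (3.39, 3.96 and 3.44). SPL9 rose by 2.77, MFT fell by 3.95 and overlaps another gene in part, and FT was not tested, with 0 reads in cop1-4 and 1 in Col-0.

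**Figure D4:**
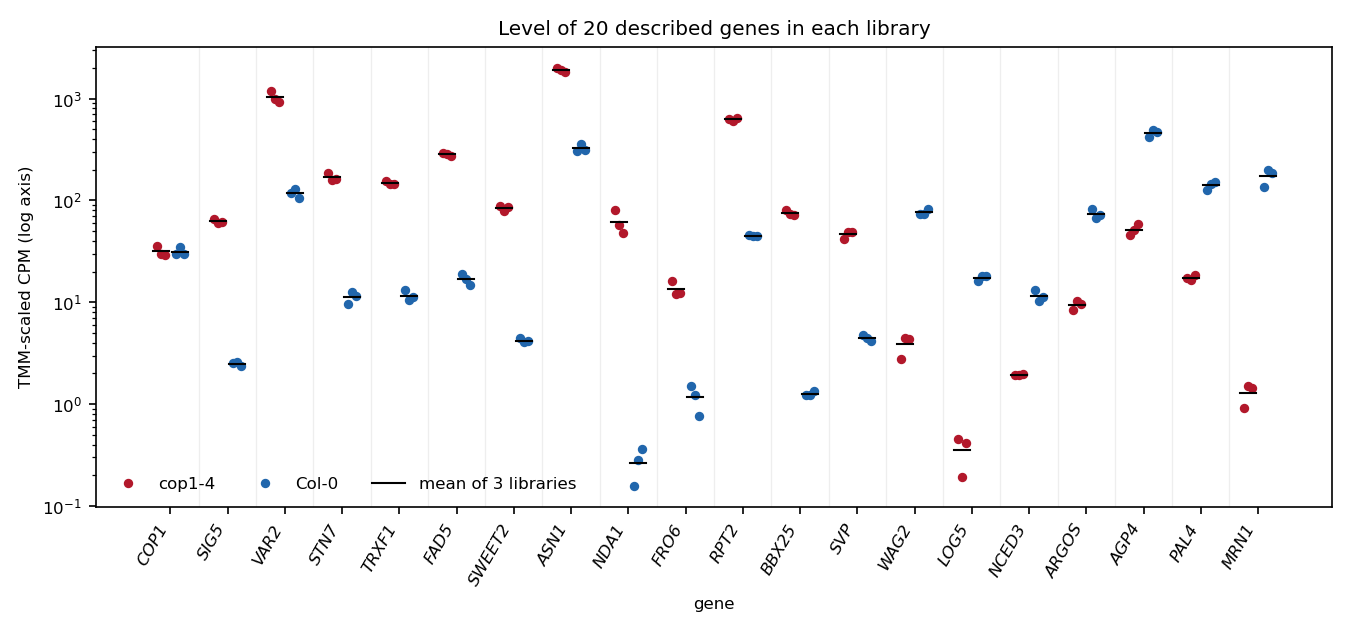
Level of 20 described genes in each library, in TMM-scaled CPM on a log axis, with cop1-4 libraries in red left of Col-0 libraries in blue and a black bar for the mean of 3 libraries. The groups overlap for COP1 (29.1 to 35.7 CPM in cop1-4, 29.7 to 34.9 CPM in Col-0) and are apart for the other 19 genes.

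The cellulose and secondary wall list had 15 of 24 tested called lower and 1 higher (CESA9, 0.44), with a median of -0.73. The call of CESA9 was lost with library totals, no filter, the 6 libraries alone and DESeq2, and without cop1-4 replicate 1 or 2 or any 1 Col-0 library. Of the cellulose synthase genes of the primary wall, CESA3 and CESA6 were not called (-0.07 and -0.26, adjusted p = 0.473 and 0.0546). Those of the secondary wall fell (CESA4 -0.75, CESA7 -0.91, CESA8 -0.81), as did the xylem regulators VND6 and VND7 (-2.02 and -1.60) and the xylan gene IRX9 (-1.33). VND7 was low in both genotypes, at a mean of 0.58 CPM in cop1-4 and 1.79 CPM in Col-0. The summed vasculature markers were lower in cop1-4 (402 to 404 CPM, against 538 to 568 CPM in Col-0). These markers include VND7 and CESA7 (as IRX3), so they are not separate from this list. Their part in these falls was not tested. Arabinogalactan protein genes had 20 of 28 called lower and 3 higher (median -1.10). AGP4 stood at 45.5, 51.3 and 58.7 CPM in cop1-4 and 423, 488 and 468 CPM in Col-0 and overlaps another gene in part. AGP22 stood at 23.3, 26.0 and 26.6 CPM in cop1-4 and 242, 221 and 208 CPM in Col-0. AGP17 stood at 43.7, 44.3 and 44.9 CPM in cop1-4 and 3.14, 3.23 and 4.003 CPM in Col-0. AGP4 and AGP22 were lower and AGP17 higher in every cop1-4 library (-3.15, -3.15 and 3.68). Fasciclin-like genes had 12 of 16 called lower and 2 higher (median -1.02). FLA1 fell by 2.57. The rise of FLA18 (0.19) was small and was not called with library totals (-0.13), with no filter or a stricter one, with the 6 libraries alone, with the replicate block, or without cop1-4 replicate 2 or 3, Col-0 replicate 1 or 2 or any 1 spaQ library.

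Tubulin genes had 13 of 15 called lower and 1 higher, or 0 higher without overlapping genes (median -0.92). TUB1, whose transcript is known to fall in light, stood at 32.9, 33.7 and 36.7 CPM in cop1-4 and 205, 198 and 198 CPM in Col-0 (log2 fold change -2.54, SE 0.09, adjusted p = 2.39e-12). TUA4 fell by 1.65 and TUA1 rose by 0.68. Core histone genes had 14 of 20 called lower and 1 higher, or 0 higher with library totals and 2 with no filter (median -0.45), with HTA12 at -1.57 and HTB2 at -1.29, and tubulin and histone copies are alike in sequence, so reads may be shared. The list of common reference genes had 4 of 16 called higher and 5 lower, or 1 higher and 10 lower with library totals (median -0.02). ACT2 stood at 3213, 2957 and 2988 CPM in cop1-4 and 1494, 1570 and 1521 CPM in Col-0 and ACT7 at 275, 297 and 303 CPM in cop1-4 and 618, 589.7 and 661 CPM in Col-0. These 2 actin genes moved apart by similar steps (1.0 and -1.1), and TUB6 fell by 1.22.

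Phenylpropanoid genes had 8 of 23 called higher and 11 lower (median -0.12). PAL4, a phenylalanine ammonia-lyase, stood at 17.5, 16.6 and 18.5 CPM in cop1-4 and 127, 144 and 150.1 CPM in Col-0. PAL3 stood at 26.2, 21.02 and 20.4 CPM in cop1-4 and 4.29, 5.47 and 4.64 CPM in Col-0. These paralogs of the first step moved in opposite directions (log2 fold change -3.01, SE 0.09, adjusted p = 4.21e-13 for PAL4 and log2 fold change 2.24, SE 0.12, adjusted p = 2.51e-10 for PAL3). UGT84A3, a sinapate glucosyltransferase, stood at 24.3, 25.1 and 19.0 CPM in cop1-4 and 0.445, 0.497 and 0.334 CPM in Col-0 (log2 fold change 5.73, SE 0.18, adjusted p = 5.61e-13), and SNG1, which makes sinapoylmalate, a UV screen, rose by 2.31. The ligase 4CL1 fell by 1.54 and the alcohol dehydrogenase CAD5 by 1.43.

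Genes of ER bodies, which store beta-glucosidases, and of triterpene clusters formed the list with the lowest median (-1.11), with 14 of 15 genes called lower and 1 higher. MRN1, the marneral synthase, stood at 0.913, 1.51 and 1.44 CPM in cop1-4 and 134, 198 and 188 CPM in Col-0. THAS1, the thalianol synthase, stood at 4.76, 4.11 and 5.44 CPM in cop1-4 and 30.2, 35.8 and 39.7 CPM in Col-0. Both were lower in every cop1-4 library than in any Col-0 library (log2 fold change -7.10, SE 0.19, adjusted p = 1.54e-13 for MRN1 and log2 fold change -2.89, SE 0.13, adjusted p = 1.93e-11 for THAS1). CYP705A12, beside MRN1, fell by 3.56. The ER body regulator NAI1 fell by 0.75 and the lectin PBP1 (AT3G16420) by 1.19. BGLU21, a root paralog of PYK10, rose by 1.11. Root markers were lower as a sum, most of which is PYK10 itself, with 5 of 15 tested called higher and 9 lower. Their part was not tested.

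Immune signalling had 19 of 35 tested called lower and 7 higher, or 2 higher with library totals (median -0.33). The salicylate marker PR1 fell by 3.23 and PBS3, of salicylate synthesis, fell by 2.1, while WRKY22 rose by 1.22. FMO1, of systemic resistance, fell by 2.7 at a low level (mean 0.29 CPM in cop1-4 and 1.795 CPM in Col-0). The receptor genes FLS2 and BAK1 fell by 0.45 and 0.42. Heat shock and folding genes had 10 of 30 called higher and 11 lower, or 6 higher with library totals and 7 lower without cop1-4 replicate 2 (median -0.12), with HSFA1B at 0.86, HSP70 at 0.78, HSFB1 at -0.90 and the ER chaperone CNX1 at -0.64. Of all genes, 31.8% were called higher and 30.3% lower. Of these 30 heat shock and folding genes, 3 were called at 2-fold, against 24.7% of all genes.

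Among families of specialised metabolism, cytochrome P450 genes had 67 of 166 called higher and 61 lower, at a median of 0.05 that became -0.26 with library totals. Of these P450 genes, 80 were called at 2-fold (48.2%), against 24.7% of all genes. CYP706A6 had 9.72, 10.97 and 9.95 CPM in cop1-4 and 0, 0 and 0 CPM in Col-0. CYP96A5, of a family of wax and fatty acid hydroxylases, stood at 0.0326, 0.0775 and 0.0465 CPM in cop1-4 and 28.2, 30.4 and 28.6 CPM in Col-0 (log2 fold change -9.03, SE 0.26, adjusted p = 2.91e-13). Its few reads in cop1-4 leave the size of this fold less certain than the SE implies. CYP71A22 stood at 7.14, 4.77 and 3.72 CPM in cop1-4 and 0, 0.0311 and 0 CPM in Col-0, with 422 reads over cop1-4 libraries and 1 over Col-0 libraries, a ratio of 560 (exact 95% interval 99.9 to 22200, counting error only). UDP-glycosyltransferase genes had 21 of 48 called higher and 11 lower, at a median of 0.15 that became -0.17, with 19 lower, with library totals, with DOGT1, which glucosylates brassinosteroids, at 2.83. Glutathione S-transferase genes had 13 of 42 higher and 16 lower, against 31.8% higher and 30.3% lower of all genes (median -0.09), with GSTL2 at 2.78 and GSTF10 at -1.78. Beta-glucosidase genes had 19 of 34 higher and 8 lower (median 0.62). The myrosinase genes TGG1 and TGG2, which cleave glucosinolates, went apart. TGG1 stood at 738, 747 and 686 CPM in cop1-4 and 244, 255 and 231 CPM in Col-0, and TGG2 stood at 0.783, 1.16 and 0.651 CPM in cop1-4 and 15.1, 13.0 and 14.5 CPM in Col-0. The log2 fold changes were 1.57 and -4.02.

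Some genes were counted in 1 genotype only. With at least 1 CPM on average in the other genotype, 7 genes had no read in any Col-0 library and 6 had none in any cop1-4 library. CYP706A6 was at least 117-fold higher in cop1-4, against a floor of 3 reads per library. Next came AT4G32510 (at least 39.6-fold), AT3G11110 (34.1), DOT3 (24.6), UGT73C1 (16.8), ABCF2 (16.1) and AT5G55570 (11.9). In the other direction, AT1G72290 was at 0 in cop1-4 and at 13.1, 10.8 and 11.6 CPM in Col-0, at least 100-fold lower in the mutant. It was followed by WSD1 (at least 54.3-fold lower), AT5G37970 (20.3), the copper transporter gene COPT3 (9.90), AT3G02810 (8.63) and AGL58 (8.55). These bounds cover counting error only.

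Short motifs were counted on either strand in windows from 250 bases before to 50 bases after annotated gene starts, for 20754 genes. Shares are descriptions, without a test, and a motif in a window is not a site of binding. The I-box (GATAAG) was in 21.1% of 2698 windows of genes at least 2-fold higher, 13.35% of 2420 windows of genes at least 2-fold lower and 14.85% of all windows. The PIF-binding E-box (CACATG) was in 13.05% of higher, 19.5% of lower and 13.1% of all windows. The abscisic acid response element (ACGTGGC) was in 7.52% of higher, 4.46% of lower and 4.74% of all windows, and the evening element of clock genes (AAAATATCT) in 4.485%, 2.603% and 2.93%. The G-box (CACGTG), which can overlap the abscisic acid response element and always holds the core ACGT, was in 10.04% of higher, 9.13% of lower and 8.76% of all windows. The core ACGT was in 53.5%, 53.6% and 50.6%, the CCA1 site (AAAAATCT) in 9.04%, 7.44% and 7.96%, the auxin response element (TGTCTC) in 15.05%, 15.91% and 13.7%, and the brassinosteroid response element (CGTGCG) in 1.41%, 2.23% and 2.15%, each in the same order. The site II element (TGGGCC), known from genes of growing cells such as those of ribosomal proteins, was in 15.4% of higher, 8.84% of lower and 18.19% of all windows. Among genes changed at least 4-fold, the I-box was in 23.55% of higher and 14.51% of lower windows, the E-box in 13.96% of higher and 22.01% of lower windows, and the G-box in 11.49% of higher and 12.21% of lower windows.

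**Figure D5:**
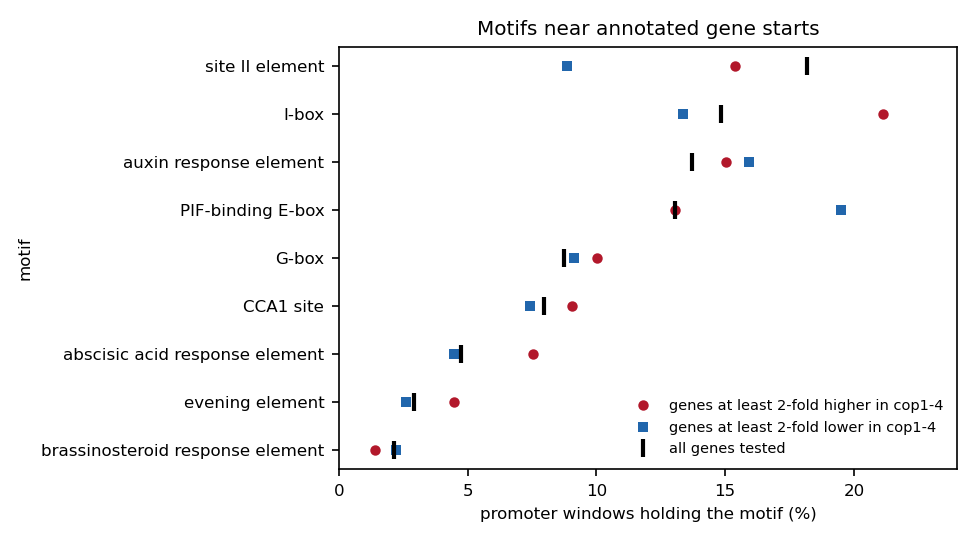
Share of windows around gene starts that hold each of 9 motifs, in percent, for genes called at least 2-fold higher in cop1-4 (red circles, 2698 windows), at least 2-fold lower (blue squares, 2420 windows) and all genes tested (black bars, 20754 windows). The I-box is in 21.1% of higher windows and the PIF-binding E-box in 19.5% of lower windows, against 14.85% and 13.1% of all windows.

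A direct test against the other mutant shows where the levels in cop1-4 were not those of spaQ. Between spaQ and cop1-4, 9862 of 20779 genes were called (47.5%), so a difference between the mutants is common. The 2 comparisons share the cop1-4 libraries. For the starvation genes, ASN1 averaged 1901 ± 96.0 CPM in cop1-4, 954 ± 109 CPM in spaQ and 326 ± 28.1 CPM in Col-0 (SD, n = 3 each). SEN1 (AT4G35770) averaged 1248 ± 90.7 CPM in cop1-4, 649.9 ± 52.8 CPM in spaQ and 224 ± 10.5 CPM in Col-0 (SD, n = 3 each). Both were highest in cop1-4, by a spaQ over cop1-4 log2 fold change of -1.0 (adjusted p = 1.37e-06) and -0.94 (adjusted p = 8.41e-07). COR414-TM1 averaged 14.02 ± 1.72 CPM in cop1-4, 2.33 ± 0.767 CPM in spaQ and 1.89 ± 0.267 CPM in Col-0 (SD, n = 3 each), a spaQ over cop1-4 log2 fold change of -2.59 (adjusted p = 8.03e-08). The auxin importer gene LAX1 averaged 67.2 ± 0.831 CPM in cop1-4, 30.5 ± 2.26 CPM in spaQ and 31.7 ± 0.415 CPM in Col-0 (SD, n = 3 each) (-1.14, adjusted p = 2.11e-08). Nitrate transporter gene NRT1.5 averaged 54.9 ± 6.28 CPM in cop1-4, 2.53 ± 1.17 CPM in spaQ and 310.4 ± 28.0 CPM in Col-0 (SD, n = 3 each) (-4.40, adjusted p = 8.24e-10), a fall in cop1-4 that was smaller than that in spaQ. CYP707A2 averaged 15.3 ± 1.81 CPM in cop1-4, 63.6 ± 3.92 CPM in spaQ and 0.334 ± 0.112 CPM in Col-0 (SD, n = 3 each) (2.06, adjusted p = 1.48e-09), a rise in cop1-4 that was smaller than that in spaQ. RPT2 averaged 630.0 ± 21.9 CPM in cop1-4, 712 ± 12.1 CPM in spaQ and 45.0 ± 0.593 CPM in Col-0 (SD, n = 3 each), and for it the difference between the mutants was not called (0.18, adjusted p = 0.0582).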

How the data were processed

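RNA-seq measured transcripts of whole dark-grown seedlings. The authors deposited raw read counts per gene for all 9 libraries. The tools and build were HTSeq, TopHat, Bowtie2, FastQC and DESeq2, with TAIR10, as the submitters' processing notes list them without roles or versions. The strand setting of counting is not given in the sources used here. A gene that overlaps another, on either strand, may therefore hold its reads or lose reads of its own. Of untested list members that overlap another gene fully, NDHL, MYB58, PTAC18 and SPL15 had 0 reads in all 9 libraries and SPL5 had 65. The cause was not tested. Tested genes named here that are overlapped over 10% or more of their length include MCCA, BBX24, PNSB1, MFT, FTSH1, TUA1, TUB1, TRXY1, TATC, TIC55, MYB10, TOC159, CESA8, FAD4, FER1, HTA12, ABCF2, AGP4, SIG4, GRF7 (AT5G53660) and PHOT2. Near-identical copies may share reads. The deposited tables of regulated genes were not used.

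Counts were filtered with filterByExpr, scaled by TMM and tested with edgeR's quasi-likelihood test (edgeR 4.0.16, R 4.3.3) in 1 fit over 9 libraries with genotype as the term, which left 6 residual degrees of freedom and 20779 of 33655 features. Calls needed an adjusted p-value below 0.05, and 2-fold calls also a log2 fold change of 1 or more in size. SE was the size of the fold change over the root of its F value. Where a genotype had few reads, this SE can be smaller than the counting error. The pipeline was tested on simulated counts, a check from which no result is drawn here. Libraries held 22482588 to 33395264 counted reads in the compared genotypes, and replicate pairs differed by more than counting noise (chi-square 3.27 to 20.4 per degree of freedom). Where a genotype was at 0 in all libraries, the fold is a bound against 3 reads per library. Where a genotype had 1 to 3 reads in all, the ratio has an exact 95% interval. Bounds and intervals cover counting error only.

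Members were described through 32 gene lists (837 different genes, 769 of them tested), 60 families matched by name patterns, of which 14 are described, and 9 marker lists. Of 855 list entries, 842 were matched to a gene by name, as were 81 of 82 marker entries, and the rest were left out. The members, lists and families were chosen with earlier results of these data known. The named genes were COP1, in each list or family up to 3 rises and 3 falls with the largest log2 fold changes among calls at a mean log2 CPM of 1 or more and with no overlap of libraries, the 10 largest rises and falls of mean CPM, genes at 0 in 1 genotype, and members that define a list or its first step. The other genes named were chosen after their values were seen. Promoter windows and overlaps came from the RefSeq annotation of TAIR10.1, and the motif search read 250 bases before and 50 after each start. The alternatives were library totals, no filter or a stricter one, a fit of 6 libraries, a replicate block, DESeq2 1.42.0, no overlapping genes and each library left out in turn.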

Additional observations from a re-analysis of the deposited data

How the results depend on the processing

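Library totals in place of TMM gave 4080 higher and 10227 lower calls, 3672 of the lower ones at 2-fold, and turned the sign of the median log2 fold change for the lists of the COP9 signalosome and CUL4 (-0.072), cold and drought (-0.063), cytokinin (-0.224), flowering (-0.039), leaf growth (-0.242), phototropism (-0.225), meristem and polarity (-0.184), sucrose (-0.147) and trichomes (-0.214), and for glycosyltransferases (-0.172) and cytochrome P450 genes (-0.263). That scaling also lowered counts of higher members by over 1.5 times, among them the signalosome list (3 of 17 higher, 5 lower), reference genes (1 higher, 10 lower) and immune signalling (2 higher). The trichome median was -0.078 with a stricter filter and -0.054 to 0.211 with 1 library left out, the phenylpropanoid median was 0.104 without overlapping genes, and that of the COP1 and SPA substrates was -0.375 to 0.0 with 1 library left out, with 0.0 without Col-0 replicate 1. COP1 itself had -0.31 with library totals, -0.01 with a stricter filter, -0.01 with DESeq2 and -0.09 to 0.09 with 1 library left out, and FLA18 had -0.13 with library totals. The cause was not tested.

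Leaving out each library in turn gave 6164 to 6624 higher and 5727 to 6337 lower calls, DESeq2 gave 6287 and 6317, and the fit of the 6 libraries alone 6309 and 6085. The replicate block gave 6530 and 6197 calls, with 2695 and 2419 at 2-fold. Same-numbered libraries share only a number in the labels, and their deviations correlated at -0.091, -0.149 and 0.163, so not each library correlated best with its own number. The highest correlation, 0.279, was that of cop1-4 replicate 1 with Col-0 replicate 2, a pair that the replicate block does not join. Its cause was not tested. Bounds and intervals cover only genes of 0 to 3 reads in a genotype. Other genes with few reads have wide errors, such as HAI3 (-2.62, SE 0.67) and NCED5 (-2.50, SE 0.64). For genes with few reads in only 1 genotype, such as CYP96A5, BBX23 and BBX31, the SE can understate the error. The filter on low counts left out others, such as LAF1 with 6 reads in cop1-4 and 44 in Col-0. The part of depth was not tested.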

Other observations

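Runs of neighbouring genes on TAIR10.1 in which every tested gene was called at least 2-fold in 1 direction were listed after the values were seen, without a test. The longest was on chromosome 4 from 8730499 to 8813593, where 8 genes were lower in cop1-4. It held the triterpene synthase gene PEN1 (log2 fold change -1.49), the acyltransferase gene BIA1 (-1.19) and the P450 genes CYP702A2, CYP705A1, CYP705A4, CYP702A5 and CYP702A6 (-2.06 to -1.03). On the same chromosome from 8925571 to 8941406, 6 neighbours with loci from AT4G15660 to AT4G15710 were higher, by 2.14 to 3.78, and they may be alike in sequence, so reads may be shared. On chromosome 5 from 15107124 to 15160314, 6 genes were lower, among them AT5G37940 and AT5G37970, the second of which was at 0 in all cop1-4 libraries. On chromosome 3 from 9595930 to 9634822, 5 genes were higher, 4 of them P450 genes (CYP71B3, CYP71B24, CYP71B4 and CYP71B26, by 1.91 to 5.12).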
